A study of Mus musculus with 19 samples.

Results

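The interaction of Trim71 loss and Lin28a loss was examined in mouse embryonic stem cells. It asks whether losing Trim71 has the same effect on a transcript when Lin28a is present and when it is absent. The interaction was the Trim71 effect in Lin28a-null cells minus the Trim71 effect in Lin28a-intact cells, in log2 units of expression. It is 0 where the 2 losses add up on that scale. Of 19 libraries 18 entered. The 1 left out, a KO-WT library and alone on its day, held nothing but the average of its genotype.

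The cells were male C57BL/6 embryonic stem cells kept in serum with LIF and sorted by magnetic beads for the surface antigen SSEA-1. All genotypes carried floxed or null alleles of both genes. WT-WT (Trimfl/fl - Lin28afl/fl, n = 4) kept both genes, KO-WT (Trim-/- - Lin28afl/fl, n = 4) had lost Trim71, WT-KO (Trimfl/fl - Lin28a-/-, n = 5) had lost Lin28a, and KO-KO (Trim-/- - Lin28a-/-, n = 5) had lost both. Per the protocol in the labels, deletion used 500 nM 4-hydroxytamoxifen for 2 days, and cells were kept for at least 7 days afterwards. Lin28a-intact cells were clones 1 and E3, and Lin28a-null cells were clones 1-4 and C1. Clone and Lin28a genotype therefore cannot be told apart. Days 1 and 5 used clones 1 and 1-4, and days 2, 3 and 4 used clones E3 and C1. The 4 genotypes were all present on days 3, 4 and 5. No label says whether the libraries of a genotype are separate cultures, so p-values measure the spread between these libraries.

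TRIM71 is an RNA-binding protein of early embryos and stem cells that represses the mRNAs it binds and also carries a ubiquitin ligase domain. LIN28A binds let-7 precursors and blocks their maturation, so that stem cells hold little mature let-7, a microRNA that pushes cells towards differentiation. Trim71 mRNA is itself a let-7 target, and TRIM71 has been linked to let-7 control, which places both proteins in a shared circuit.

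The labels were checked on the targeted transcripts and on marker genes. Trim71 differed by -1.31 ± 0.120 (SE) between KO-WT and WT-WT and by -1.38 ± 0.103 between KO-KO and WT-KO. Its interaction was -0.06 ± 0.158. Trim71 was higher in Lin28a-null cells, by 0.45 ± 0.111 between WT-KO and WT-WT and by 0.38 ± 0.111 between KO-KO and KO-WT. Lin28a differed by -1.65 ± 0.0752 between WT-KO and WT-WT and by -1.56 ± 0.0752 between KO-KO and KO-WT, and its interaction was 0.09 ± 0.107. The stem cell factor Pou5f1 ranged from 12.55 to 12.93 over all 18 libraries, and Nanog from 12.12 to 13.36. Fut4, a fucosyltransferase also listed as a stem cell marker, was low at 2.66 to 3.41. Of 8 fibroblast markers 4 were in the table, among them Col1a1 at 4.15 to 5.57, and the interaction of their summed level was 0.15. The depth of the libraries is unknown.

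Across the transcriptome few interactions were large in log2 units. Among 14988 tested genes the median interaction was 0.0036, with a 5th percentile of -0.25 and a 95th percentile of 0.31. Scaling of the libraries to each other largely sets such a median, and the share of estimates above 0, so neither measures additivity. Halved, to lie on the scale of the mean effects, the interaction had an SD of 0.086 over genes. The mean Trim71 effect had 0.14 and the mean Lin28a effect 0.32. Only 4 genes had an interaction of 1 unit or more in either direction, and 182 genes (1.21%) reached 0.5. For comparison, 195 genes had a mean Lin28a effect of 1 unit or more over both Trim71 states, and 4 genes had a mean Trim71 effect of that size over both Lin28a states. Those 195 genes had a median interaction of 0.087, with quartiles of -0.025 and 0.22, and 22 of them (11.3%) had an unadjusted p under 0.05, against 15.1% of all tested genes. Of all tested genes 271 passed the filter on low values only through Lin28a-intact libraries, so that their interaction cannot be read. How many of the 195 were among these was not counted. In limma's fit 3 genes passed an adjusted p under 0.05, which is 0.02% of those tested, and 673 did when the term for day was left out of the fit. In simulated data 32.8% of calls were false without that term and 5.47% with it. At an unadjusted p under 0.05, 7.56% of genes had an interaction above 0 and 7.49% below 0. With no interaction at any gene, a share of about 0.05 would lie under that p. An estimate above 0 was found for 50.9% of genes.

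Single genes with large Lin28a effects are given next. Krt8, a keratin of simple epithelia and trophectoderm, stood at 10.74, 11.33, 10.84 and 10.92 in WT-WT and at 11.02, 10.74, 10.90 and 11.23 in KO-WT. It stood at 6.51, 6.79, 6.89, 6.89 and 6.62 in WT-KO and at 7.47, 6.92, 6.72, 7.05 and 6.91 in KO-KO. Lin28a-null libraries were all far below the intact ones, and within each Lin28a state the Trim71 groups overlapped. In bulk RNA, fewer cells that express a gene and less RNA per cell cannot be told apart. With additive effects KO-KO would average 6.75, and the observed mean was 7.01, an interaction of 0.26 ± 0.216 (SE, adjusted p 0.579). Krt18, its partner keratin, had an interaction of 0.17 ± 0.209.

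H19, an imprinted long non-coding RNA, stood at 11.10, 11.24, 10.998 and 11.52 in WT-WT, and at 10.77, 10.70, 10.76 and 10.49 in KO-WT. It stood at 6.03, 5.89, 6.03, 6.15 and 6.43 in WT-KO, and at 5.85, 5.79, 5.68, 5.75 and 5.22 in KO-KO. Every Trim71-null library was below every Trim71-intact library of the same Lin28a state. The Trim71 effect was -0.54 ± 0.152 in intact and -0.45 ± 0.130 in null cells, and the interaction was 0.09 ± 0.200 (adjusted p 0.871). In amounts relative to the mean of H19 and divided by the natural log of 2, in place of logs, its interaction was 1.18 (adjusted p 0.163), so its near-additivity is of ratios. Peg10, another imprinted gene, had an interaction of -0.05 ± 0.146, beside a Lin28a effect of -2.66 with Trim71 intact.

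Dab2, an endocytic adaptor made by primitive endoderm, stood at 7.20, 7.45, 7.26 and 6.76 in WT-WT and at 7.53, 7.03, 7.22 and 7.75 in KO-WT. It stood at 4.10, 4.50, 4.57, 4.63 and 4.15 in WT-KO and at 4.86, 4.34, 4.49, 4.43 and 4.87 in KO-KO. The additive value of KO-KO, 4.60, equalled its mean, 4.60, with a wide error: the interaction of Dab2 was -0.0057 ± 0.260. Its same-day values were 0.35, -0.15 and -0.28 on days 3, 4 and 5. The 3 genes with the highest mean Lin28a effect were Lefty2, a Nodal inhibitor, Egr1, an immediate early transcription factor, and Myo1f, an unconventional myosin. Their interactions were -0.41 ± 0.155, -0.07 ± 0.185 and 0.17 ± 0.145, none with an adjusted p under 0.05. Egr1 had a Lin28a effect of 1.41 with Trim71 and 1.34 without it. The 14 tested immediate early genes had medians of -0.34 and -0.60, on the other side of 0.

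**Figure D1:**
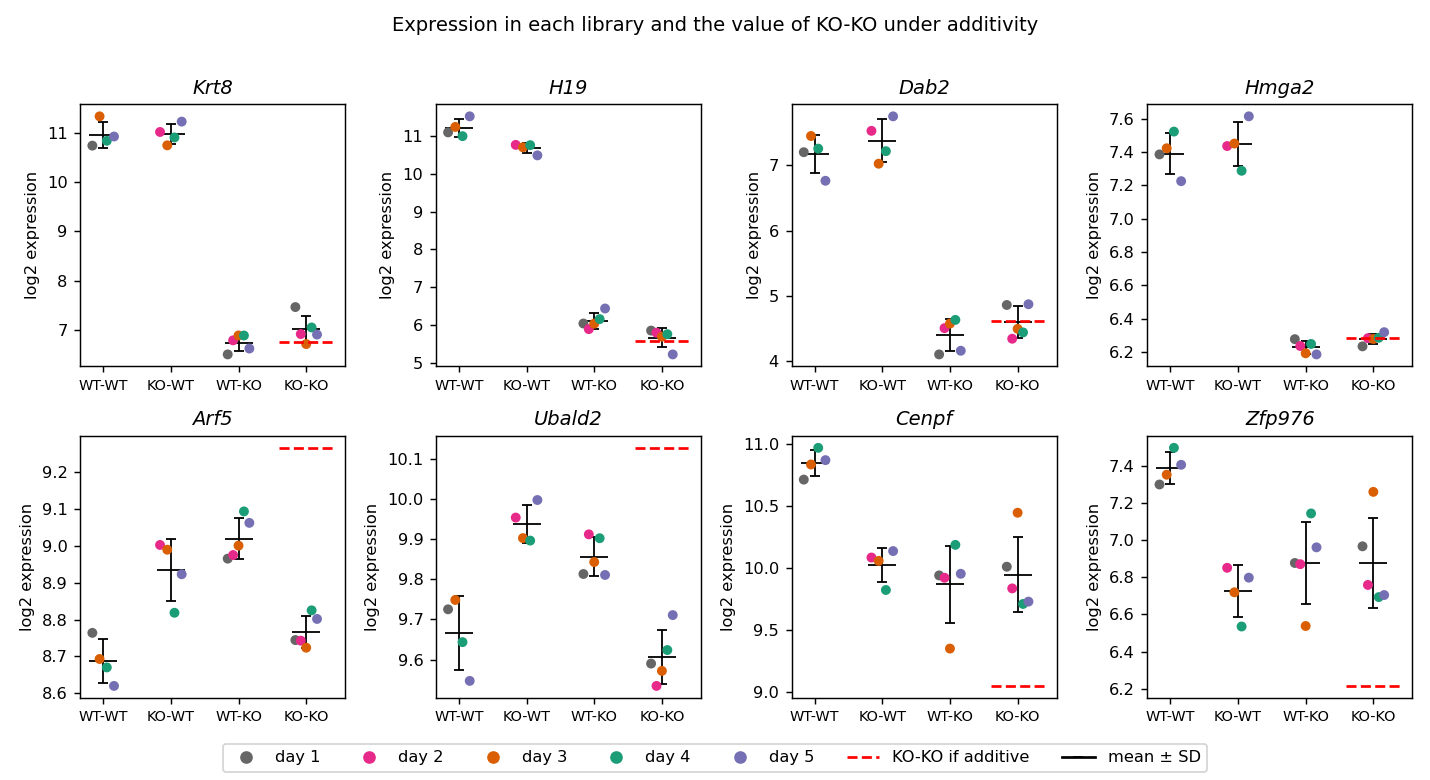
Log2 expression of 8 genes in each library (points, coloured by day) by genotype, with mean and SD in black and, as a red dashed line, the mean that KO-KO would have with additive effects. For Krt8, H19, Dab2 and Hmga2 the line lies within or near the KO-KO points, while for Arf5 and Ubald2 it lies above all of them and for Cenpf and Zfp976 below all of them.

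Genes with the largest mean Trim71 effect over both Lin28a states mostly had interactions near 0 too. Tdrd12, a piRNA pathway gene, and Sema3e, a secreted semaphorin, were the lowest beside Trim71, and Foxj1, the master factor of motile cilia, Emp1, a membrane protein, and Ccr4, a chemokine receptor, were the highest. Tdrd12 had a Trim71 effect of -0.89 ± 0.170 in Lin28a-intact and -0.998 ± 0.146 in Lin28a-null cells, and Foxj1 one of 1.31 ± 0.113 and 1.26 ± 0.0966. Sema3e had an interaction of -0.03 ± 0.186 and Emp1 one of 0.31 ± 0.137 (adjusted p 0.312).

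Ccr4 was the exception in size. It stood at 5.95, 6.66, 6.53 and 5.79 in WT-WT, at 7.56, 7.39, 7.40 and 8.41 in KO-WT, at 4.99, 4.96, 4.47, 4.86 and 4.78 in WT-KO and at 7.42, 7.31, 7.54, 7.27 and 7.07 in KO-KO. The Trim71 effect was 1.46 ± 0.235 with Lin28a and 2.51 ± 0.201 without it, giving an interaction of 1.05 ± 0.309 (unadjusted p 0.00352, adjusted p 0.213). On day 5 alone it was -0.33, against 2.33 on day 3 and 1.54 on day 4, and in clones 1 and 1-4 alone it was -0.30. Without the log scale, in amounts relative to the gene's mean and divided by the natural log of 2, the interaction was -0.10.

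mRNAs recalled from the literature as bound or repressed by TRIM71 were then compared between Lin28a states. Cdkn1a, the cell cycle inhibitor p21, stood at 8.94, 9.01, 9.09 and 8.97 in WT-WT and at 9.35, 9.24, 9.53 and 9.50 in KO-WT. It stood at 8.53, 8.45, 8.73, 8.28 and 8.42 in WT-KO and at 8.87, 8.96, 8.77, 8.85 and 8.87 in KO-KO. Trim71-null libraries were above Trim71-intact ones in both Lin28a states, by 0.40 ± 0.0889 and 0.38 ± 0.0761. Plxnb2, a semaphorin receptor, showed Trim71 effects of 0.69 ± 0.0793 and 0.71 ± 0.0679. Of the 6 tested genes Mbnl1, a splicing regulator, had the highest interaction, 0.45 ± 0.173 (adjusted p 0.270), and the median of the list was 0.023. Mbnl1 had a Trim71 effect of 0.07 with Lin28a and 0.52 without it. Rbl1, Rbl2 and E2f7, which act in cell cycle control, had Trim71 effects of -0.05, 0.08 and 0.08 with Lin28a and of 0.14, 0.05 and 0.10 without it. The list's median Trim71 effect was 0.076 with Lin28a and 0.26 without it.

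let-7 links the 2 proteins, so the let-7 family and its targets were examined by sequence and by list. The mature forms below share bases 2 to 8, the seed, in capitals. They are from RefSeq (GRCm38.p6) and are shown because the seed defines the sites searched.
let-7a: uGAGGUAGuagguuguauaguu
let-7g: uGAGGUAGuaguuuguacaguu
miR-98: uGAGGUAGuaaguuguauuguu
The sites below are 1 match each in the 3' UTR of 3 known let-7 targets, from GENCODE M21 transcripts, with the match of the seed and a following A in capitals.
Hmga2: tcaatttCTACCTCAgcatcag
Lin28b: gggaagtCTACCTCAtgcaagc
Nr6a1: aagacaaCTACCTCAatggaaa
The search was for CTACCTC, which lies within the longer match CTACCTCA, on the transcript strand only, with overlapping matches counted.

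Hmga2, a chromatin protein of embryonic and tumour cells, stood at 7.39, 7.42, 7.52 and 7.23 in WT-WT and at 7.44, 7.45, 7.29 and 7.62 in KO-WT. It stood at 6.28, 6.24, 6.19, 6.25 and 6.19 in WT-KO and at 6.23, 6.28, 6.28, 6.29 and 6.32 in KO-KO. The Lin28a states did not overlap and the Trim71 groups did, and the interaction was -0.01 ± 0.105. Nr6a1, an orphan nuclear receptor, had Trim71 effects of -0.35 ± 0.0683 with Lin28a and -0.38 ± 0.0585 without it, an interaction of -0.04 ± 0.0899. Lin28b, the paralog of Lin28a, had an interaction of 0.11 ± 0.143. The Lin28a effect with Trim71 intact was -1.16 for Hmga2, -0.19 for Nr6a1 and 0.16 for Lin28b. Over 48 tested genes recalled as let-7 targets, the median Lin28a effect was -0.016 with Trim71 intact and -0.0025 in Trim71-null cells.

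The 48 tested members of a list of recalled let-7 targets had a median interaction of 0.034, with 29 above and 19 below 0. At an unadjusted p under 0.05, 3 were above (6.25%) and 2 below 0 (4.17%), beside 7.56% and 7.49% of all genes, and none passed adjustment. The 3 above were Ccnd2, a G1 cyclin (0.70 ± 0.241), Thbs1, the matrix protein thrombospondin (0.65 ± 0.221), and Tgfbr1, a TGF-beta receptor. The 2 below were Mycn, a Myc family factor (-0.33 ± 0.145), and Limd2 (-0.23 ± 0.0688). By sequence, 1353 of 12543 genes with a 3' UTR (10.8%) held the 7-base match. Their median interaction was 0.034, against 0.0027 for the 11190 genes without it. Their 3' UTRs were longer, with a median of 2306 against 1048 bases. After a correction of each library for trends with transcript GC content and length, the medians were -0.016 and -0.0065. The list of recalled targets likewise had a median of -0.029 after that correction.

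The interaction was also described over gene lists. Of 36 lists, 26 had a median interaction within 0.1 of 0 and 16 within 0.05, where members above and below 0 can offset each other. No list held a called gene, beside 0.02% of all genes called. Trophectoderm and keratin genes had a median Lin28a effect of -1.39 with Trim71 and -1.40 without it. Their median interaction was -0.0029, with 9 of 18 above 0. Of the 18, 3 were below 0 (16.7%) and none above 0 at an unadjusted p under 0.05, beside 7.49% and 7.56% of all genes. The median ran from -0.046 to 0.067 when single libraries were left out. Plac1 passed the filter only through Lin28a-intact libraries, and without it the median was -0.013. Keratin Krt7 had an interaction of -0.01 ± 0.195 and Hand1, a trophoblast and heart factor, one of 0.08 ± 0.187. Not all checked trophectoderm markers fell with Lin28a loss. Gata3, Krt7, Krt8 and Krt18 had Lin28a effects of -1.47, -3.19, -4.22 and -4.20 with Trim71 intact. Eomes had one of 0.13 and ranged from 5.23 to 5.70 over all libraries. Cdx2 (1.94 to 3.13) and Elf5 (0.77 to 1.02) stayed below the filter's level of 3.32 in every library. Whether a trophectoderm programme as a whole changed was not tested.

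Primitive endoderm genes had median Lin28a effects of -1.58 in both Trim71 states and a median interaction of 0.024 over 11 tested members. Without WT-WT replicate 4 it was 0.19, without KO-WT replicate 4 it was 0.21 and without KO-WT replicate 3 it was -0.056. It was -0.16 in linear amounts, so its sign is not settled. Amn passed the filter only through Lin28a-intact libraries, and without it the median was 0.069. Gata4, which specifies that lineage, had an interaction of -0.12 ± 0.214. Apoe, a lipid carrier, was the lowest at -0.37 ± 0.0721 (unadjusted p 9.06e-05, adjusted p 0.179). Its Trim71 effect was 0.32 ± 0.0548 with Lin28a and -0.05 ± 0.0469 without.

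Smooth muscle contractile and SRF-linked genes had median Lin28a effects of -0.72 and -0.77 and a median interaction of 0.052 over 20 members. Acta2, smooth muscle actin, had the highest estimate, 0.73 ± 0.193 (adjusted p 0.184). It stood at 6.30, 6.35, 6.30 and 6.87 in WT-WT, 5.98, 5.83, 6.11 and 5.63 in KO-WT, 3.05, 3.23, 3.34, 3.17 and 3.03 in WT-KO and 3.60, 3.17, 3.32, 3.25 and 3.31 in KO-KO. KO-WT lay below WT-WT with no overlap. The Lin28a-null libraries lay around the filter's level of log2 of 10, and Acta2 passed the filter only through the intact ones, so its Trim71 effect in null cells, and with it the interaction, cannot be read. Without Acta2 and Acta1, which passed in the same way, the median of the list was 0.031. The list's median was -0.012, -0.087 and 0.18 on days 3, 4 and 5. The same-day values of Acta2 were 0.50, 0.26 and 1.51, with the same limit from its low Lin28a-null libraries. Tagln, an actin-binding protein of the same muscle programme, had an interaction of 0.46 ± 0.208.

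**Figure D2:**
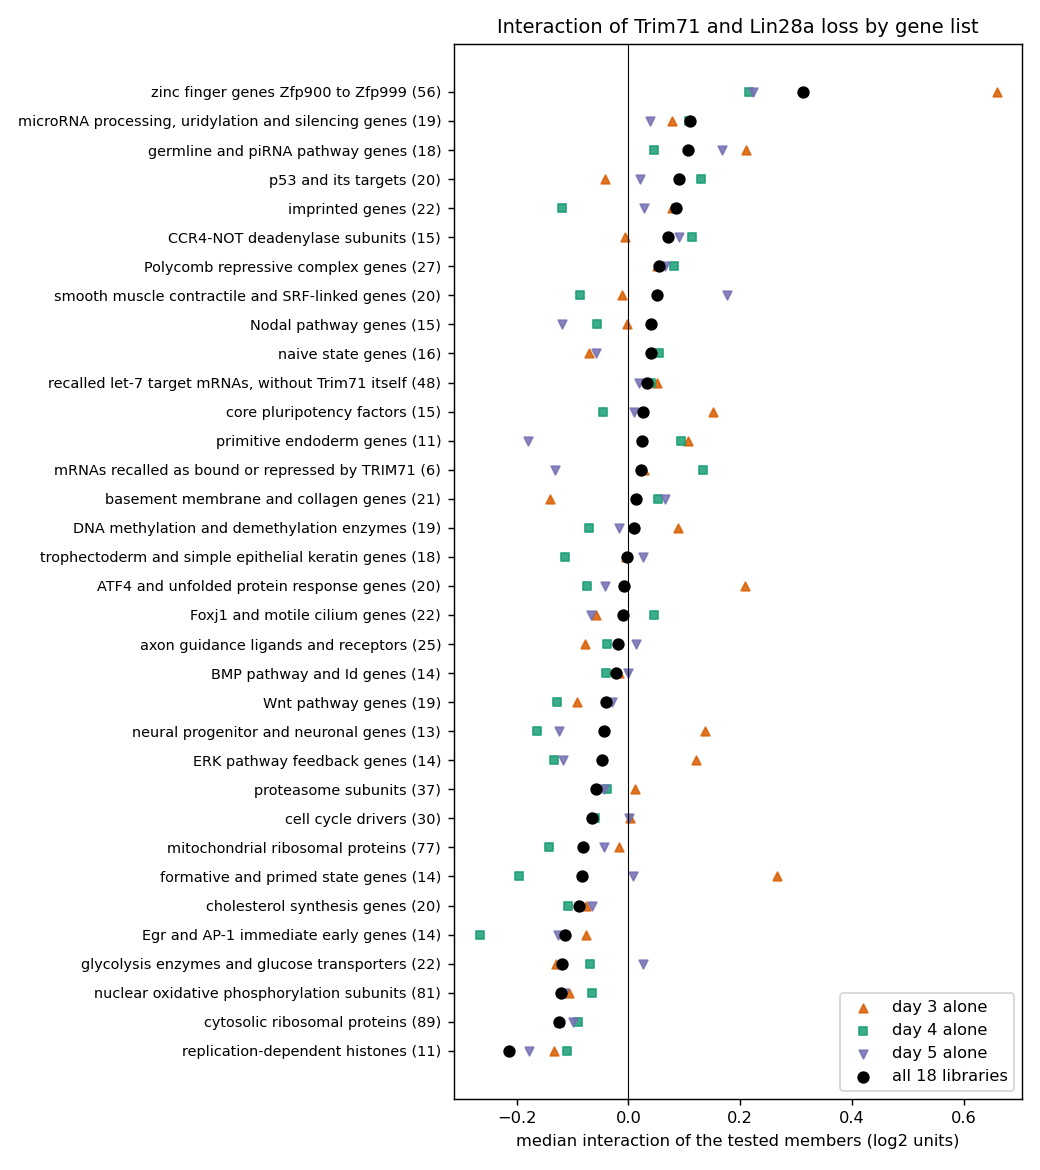
Median interaction (log2 units, x axis) of the tested members of 34 gene lists with at least 5 tested members, with the number tested in brackets. Black points use all 18 libraries and coloured symbols use day 3, 4 or 5 alone. Zinc finger genes stand apart at 0.31, and cytosolic ribosomal, oxidative phosphorylation and histone genes are among the lists below 0 on each of the 3 days.

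Pluripotency lists held single genes that departed from additivity in size, with none passing adjustment. Utf1, a chromatin factor of pluripotent cells, stood at 11.24, 11.10, 11.07 and 10.94 in WT-WT, 11.26, 11.48, 11.39 and 11.37 in KO-WT, 11.22, 11.50, 11.23, 11.29 and 11.30 in WT-KO and 11.01, 11.004, 11.05, 11.11 and 11.24 in KO-KO. KO-WT was above WT-WT and KO-KO mostly below WT-KO, with an interaction of -0.51 ± 0.106 (adjusted p 0.179). Klf2, a naive state factor, stood at 8.87, 8.75, 8.62 and 8.61 in WT-WT and 8.70, 8.64, 8.52 and 8.55 in KO-WT. It stood at 8.96, 9.20, 9.01, 9.20 and 9.18 in WT-KO and 8.50, 8.33, 8.54, 8.60 and 8.60 in KO-KO. The 2 Lin28a-null groups did not overlap and the 2 intact groups did, and the interaction was -0.48 ± 0.112 (adjusted p 0.182). Transcripts of Utf1 and Klf2 had GC contents of 63.5% and 61.6%, against a median of 50.1% for tested genes. After the GC and length correction their interactions were -0.32 and -0.33. Sox2 had an interaction of -0.28 ± 0.0743, while Pou5f1 (-0.11 ± 0.0722) and Nanog (0.11 ± 0.110) were nearer 0. The medians of core and naive factors were 0.027 and 0.041.

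The 3 called genes shared 1 pattern in Arf5 and Ubald2. Arf5, a small GTPase of vesicle traffic, stood at 8.76, 8.69, 8.67 and 8.62 in WT-WT, 9.003, 8.99, 8.82 and 8.92 in KO-WT, 8.97, 8.98, 9.001, 9.09 and 9.06 in WT-KO and 8.74, 8.74, 8.72, 8.83 and 8.80 in KO-KO. Both single mutants were above WT-WT, and KO-KO was near WT-WT. Its additive value in KO-KO was 9.27 and its mean 8.77, an interaction of -0.50 ± 0.0741 (adjusted p 0.0298). Ubald2 stood at 9.72, 9.75, 9.64 and 9.55 in WT-WT, 9.95, 9.90, 9.90 and 9.997 in KO-WT, 9.81, 9.91, 9.84, 9.90 and 9.81 in WT-KO and 9.59, 9.53, 9.57, 9.62 and 9.71 in KO-KO. Its same-day values were -0.42, -0.53 and -0.55. Gm44364 stood at 7.56, 7.30, 7.40 and 7.19 in WT-WT, 7.97, 8.11, 8.15 and 8.04 in KO-WT, 6.999, 7.36, 7.11, 7.04 and 7.22 in WT-KO and 6.97, 6.91, 7.07, 7.001 and 7.14 in KO-KO. KO-WT was above all other libraries of this gene, with a Trim71 effect of 0.70 ± 0.0960 against -0.13 ± 0.0822 in Lin28a-null cells. Their transcripts had GC contents of 59.9%, 58.9% and 64.5%, against a median of 50.1% for tested genes, and none was called after the GC and length correction, at -0.35, -0.39 and -0.63. Leaving out any of WT-WT replicates 3 and 4, WT-KO replicates 3, 4 and 5, KO-KO replicates 1, 2 and 3 or KO-WT replicates 1, 2 and 4 ended all 3 calls. Leaving out WT-WT replicate 2 also ended those of Arf5 and Gm44364, and KO-KO replicate 4 or KO-WT replicate 3 that of Gm44364. The highest adjusted p over these fits was 0.165 for Arf5, 0.165 for Ubald2 and 0.168 for Gm44364.

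Zinc finger genes formed the list farthest from 0. Zfp900 to Zfp999 are mostly KRAB zinc finger genes, a large family of repressors of transposons. Of 56 tested members 53 had an interaction above 0, with a median of 0.31. At an unadjusted p under 0.05, 26 were above 0 (46.4%) and none below, beside 7.56% and 7.49% of all genes. The list had a median transcript GC content of 38.4%. In the tenth of genes with the lowest GC content, 22.6% were above 0 and 1.15% below at that p. The list's median was 0.66, 0.22 and 0.22 on days 3, 4 and 5. Zfp976 stood at 7.30, 7.35, 7.50 and 7.41 in WT-WT, 6.85, 6.72, 6.53 and 6.80 in KO-WT, 6.88, 6.87, 6.54, 7.14 and 6.96 in WT-KO and 6.97, 6.76, 7.26, 6.69 and 6.70 in KO-KO. WT-WT was above every other library of this gene, and the other 3 genotypes overlapped. Its interaction was 0.66 ± 0.184 (adjusted p 0.196). Many of these genes are near-identical copies, so reads may be shared among them.

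The level of a list in a library was taken as the median, over its members, of the value minus the gene's mean. For these zinc finger genes it was 0.119, 0.144, 0.269 and 0.166 in WT-WT and -0.138, -0.0993, -0.275 and -0.0725 in KO-WT. It was 0.0258, 0.0396, -0.213, 0.187 and -0.0486 in WT-KO and -0.0246, -0.0925, 0.161, -0.160 and -0.0449 in KO-KO. The Lin28a-intact groups did not overlap and the null groups did. In null cells the median Trim71 effect differed in sign between days, at 0.38 on day 3 and -0.37 on day 4. In intact cells it was -0.23, -0.55 and -0.24 on days 3, 4 and 5. The other 298 tested genes named Zfp and a number, a set added after the values were seen, had a median interaction of 0.13. After the GC and length correction the medians were 0.19 for Zfp900 to Zfp999 and 0.052 for the others. Then 44 of 56 and 195 of 298 were above 0, beside 7121 of 14724 genes.

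**Figure D3:**
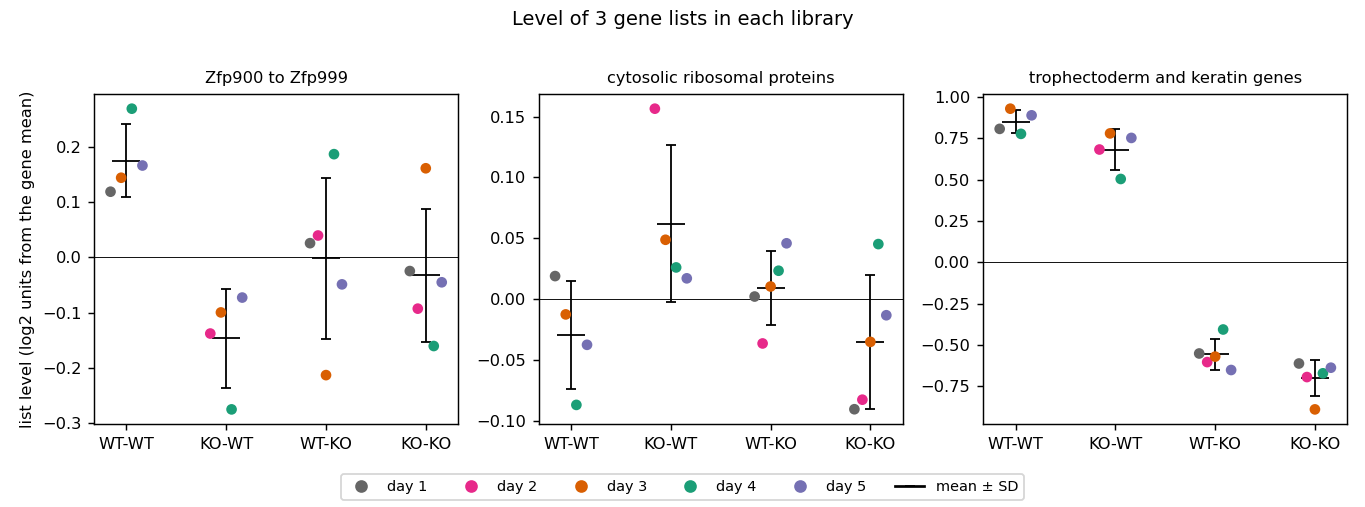
Level of 3 gene lists in each library (points, coloured by day), as the median over members of log2 expression minus the gene's mean, with mean and SD in black. The zinc finger list separates WT-WT from KO-WT and not the 2 Lin28a-null groups, the genotypes overlap in the ribosomal list, and the trophectoderm list separates the Lin28a states.

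Genes for protein synthesis and respiration lay on the other side of 0, and so did other lists. Medians were -0.12 for glycolysis enzymes and glucose transporters (19 of 22 below 0) and -0.11 for immediate early genes (8 of 14). For cholesterol synthesis genes the median was -0.088 (16 of 20), beside 7357 of 14988 tested genes below 0. At an unadjusted p under 0.05, 5 immediate early genes (35.7%), 1 cholesterol gene (5%) and no glycolysis gene were below 0, beside 7.49% of all genes. With the GC and length correction the medians were -0.065 for glycolysis, -0.047 for immediate early and -0.073 for cholesterol genes. On day 5 alone the glycolysis median was 0.025. The immediate early median ran from -0.17 to -0.0014 when single libraries were left out. Cytosolic ribosomal proteins had a median interaction of -0.12 over 89 members, with 78 below 0. At an unadjusted p under 0.05, 36 (40.4%) were below 0 and none above, and 51 were below 0 on each of days 3, 4 and 5, beside 17.2% of all genes. In all, 20.3% of genes were above 0 on each of those days. Rpl27a stood at 12.39, 12.33, 12.27 and 12.06 in WT-WT, 12.39, 12.45, 12.53 and 12.55 in KO-WT, 12.22, 12.46, 12.37, 12.19 and 12.26 in WT-KO and 12.07, 12.04, 12.01, 12.17 and 12.29 in KO-KO. Within each Lin28a state the Trim71 groups met or overlapped, and its interaction was -0.40 ± 0.111 (adjusted p 0.196). Rplp1, a stalk protein of the large subunit, had -0.36 ± 0.0791. The median Trim71 effect of the list was 0.093 with Lin28a and -0.037 without.

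Nuclear subunits of oxidative phosphorylation had a median of -0.12, with 74 of 81 below 0. At an unadjusted p under 0.05, 27 were below (33.3%) and 1 above 0, beside 7.49% and 7.56% of all genes. Uqcrq, of complex III, had an interaction of -0.40 ± 0.123, and Ndufs7, of complex I, one of -0.28 ± 0.0729. Mitochondrial ribosomal proteins had a median of -0.082, with 65 of 77 below 0, 21 of them (27.3%) at an unadjusted p under 0.05, beside 7.49% of all genes. Mrps12, of the small subunit, had the lowest adjusted p of that list, 0.112, at -0.44 ± 0.0781, and Mrpl57 had -0.51 ± 0.108. After the GC and length correction the 3 medians were -0.079, -0.070 and -0.077. Replication-dependent histones, which lack poly(A) tails, had 11 of 47 genes tested and a median of -0.21, or -0.049 after correction.

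Among single genes, the 8 highest and 8 lowest interactions were read from the 1629 genes with a mean of at least log2 of 50, an unadjusted p under 0.05 and 1 sign on days 3, 4 and 5. The highest were Cenpf, Cenpe and Knl1, which act at the kinetochore, Atrx, a chromatin remodeller, Rif1, which controls replication timing, the muscle protein Ttn, the germ cell gene Tex15 and the exchange factor Dock11. Cenpf stood at 10.71, 10.84, 10.97 and 10.87 in WT-WT, 10.09, 10.06, 9.82 and 10.14 in KO-WT, 9.94, 9.92, 9.35, 10.19 and 9.96 in WT-KO and 10.01, 9.84, 10.45, 9.71 and 9.73 in KO-KO. WT-WT was above every other library, as for Zfp976. Its interaction was 0.90 ± 0.226 (adjusted p 0.182), and Atrx had 0.79 ± 0.225. All 8 had a longest transcript of 6665 bases or more, against a median of 3092 for tested genes.

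The 8 lowest were Gm44335, Gm44364, Gm17092, Ndufaf8, Gm4419, Erdr1, Ppp1r35 and D130058E05Rik. Ndufaf8, an assembly factor of complex I, had an interaction of -0.65 ± 0.128 and same-day values of -0.73, -0.54 and -0.78. The 7 that could be matched to a transcript had a longest one of at most 3030 bases.

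With all libraries together, the centre of the distribution stayed near 0 at each expression level. Over 10 equal bins of mean expression the median interaction ran from -0.0039 to 0.015. On single days the bins spread more, from -0.051 to 0.061 on day 3, where the rank correlation with mean expression was 0.13. Its SD was 0.18 in the lowest bin and 0.16 in the highest. Precision changed more: the median SE was 0.13 in the lowest and 0.070 in the highest bin, and the share of genes above 0 at an unadjusted p under 0.05 was 4.07% in the lowest and 9.61% in the highest bin.

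The interaction differed with transcript GC content and length, over bins added after the first values were seen. The 1473 genes with the lowest GC content had a median interaction of 0.16, and the 1473 with the highest -0.12. Across 14724 genes the rank correlation with GC content was -0.50 and with length 0.37; genes are not independent replicates and these share all 18 libraries. On days 3, 4 and 5 apart the rank correlation with GC content was -0.41, -0.41 and -0.30. In Lin28a-intact cells the Trim71 effect had a rank correlation with GC content of 0.50, and in null cells of 0.015. Each library's deviation from the gene means was also compared with GC content. The rank correlation was -0.20, -0.23, -0.46 and -0.28 in WT-WT and 0.11, 0.11, 0.41 and 0.024 in KO-WT. It ran from -0.25 to 0.24 in WT-KO and from -0.16 to 0.30 in KO-KO. WT-WT and KO-WT did not overlap in this measure and the Lin28a-null groups did. With these trends removed from each library, Cenpf had an interaction of 0.67 and Zfp976 of 0.46.

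**Figure D4:**
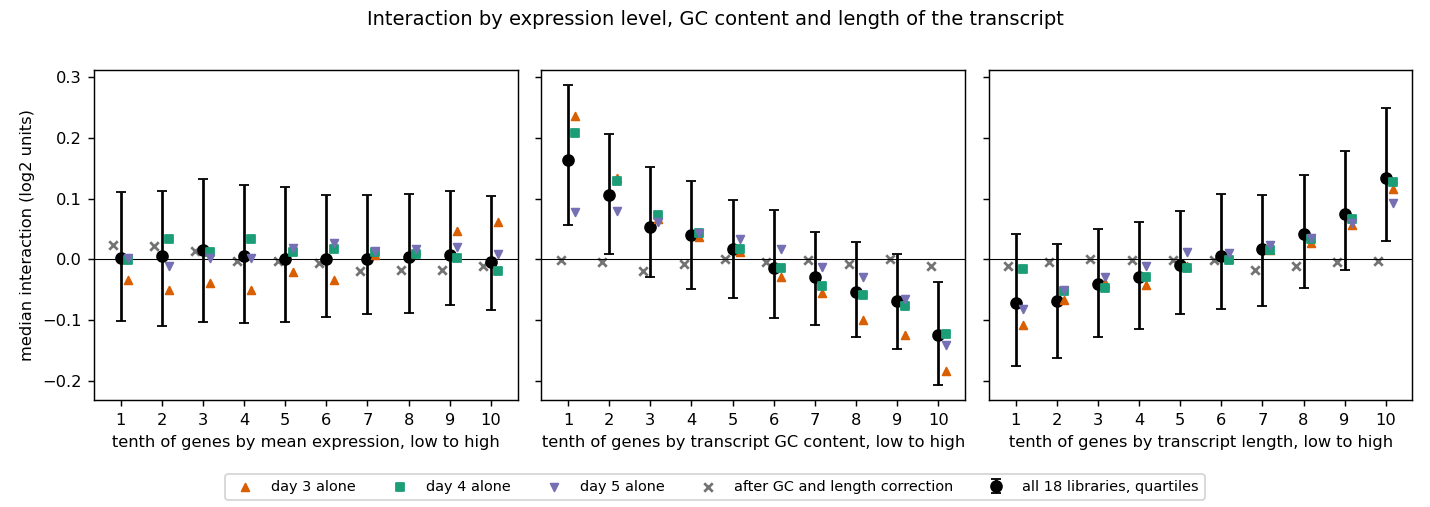
Median interaction (log2 units, y axis) in 10 equal bins of genes by mean expression, transcript GC content and transcript length, with quartiles as bars for all 18 libraries, coloured symbols for single days and grey crosses after the GC and length correction. Medians stay near 0 over expression, run from 0.16 to -0.12 with GC content and from -0.07 to 0.13 with length.

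The days with all 4 genotypes share no library, so the recurrence of the interaction could be read from them. Across genes its Pearson correlation was 0.29 between days 3 and 4, which share clones, and 0.15 and 0.16 between day 5 and each of these. After the GC and length correction these were 0.14, 0.047 and 0.058. The mean Lin28a effect, from the same libraries, had correlations of 0.84 to 0.94, and the mean Trim71 effect of 0.28 to 0.44. To set the 3 on 1 scale, the interaction was halved, so that each is a sum of 4 libraries with equal weights. The covariance between days was then 0.0027 to 0.0057 for the interaction, 0.011 to 0.017 for Trim71 and 0.093 to 0.11 for Lin28a.

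**Figure D5:**
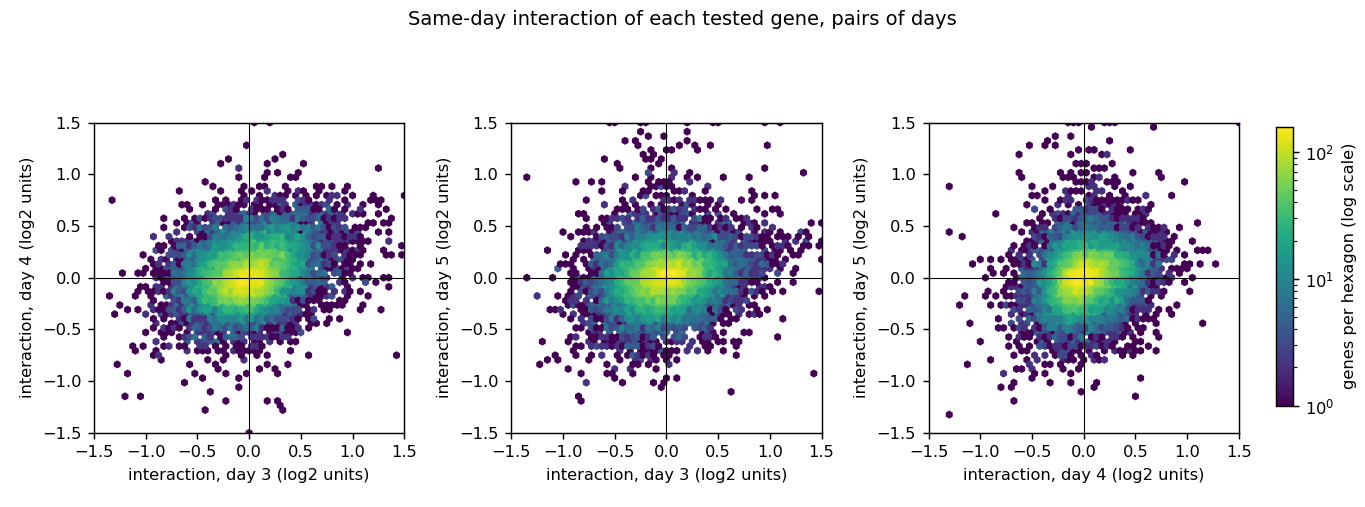
Same-day interaction of each tested gene (log2 units on both axes) for each pair of days, with hexagons coloured by the number of genes on a log scale and a few genes beyond 1.5 units not shown. The clouds centre on 0 and tilt most between days 3 and 4, with r = 0.29.

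Genes were then classed by their Lin28a effect with Trim71 intact in one set of clones, and the interaction was read in libraries of the other set. For the 1499 genes with the lowest effect on days 1 and 5 (median -0.55), the median Lin28a effect on days 3 and 4 was -0.53 with Trim71 and -0.49 without. Their interaction on those days was 0.016, and in the 1499 with the highest effect (0.40) it was -0.048. The 100 lowest genes had a median effect of -1.89 in the first set. On days 3 and 4 the sum of the single effects was -1.79 and the double mutant effect -1.79, with 54 of 100 interactions above 0. With the sets exchanged, the 100 lowest on days 3 and 4 had an interaction of 0.22 on day 5, with 76 above 0, where the sum was -2.15 and the double mutant effect -1.81. These are 2 separately chosen sets of 100 genes, and the difference between them was not tested. Neither set was checked for genes that passed the filter only through Lin28a-intact libraries, whose interaction cannot be read. Classes by the Trim71 effect in Lin28a-null cells also differed. That effect is itself a term of the interaction, though taken here from other libraries. From the lowest to the highest 1499 genes the interaction went from -0.086 to 0.075 on days 3 and 4, and from 0.063 to -0.032 on day 5.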

How the data were processed

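One table of 21685 genes and 19 mRNA libraries was used. The authors deposited log2 expression values, as read from the values, from which day differences had been removed, since no gene kept a day term above 1.7e-08. The submitters' processing notes name CASAVA 1.8, STAR and DESeq2; the genome build and annotation are not given in the sources used here. Depth is unknown.

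The test was limma's (version 3.58.1, under R 4.3.3, variance trend on) with genotype and day, on the 14988 genes (69.1%) that reached log2 of 10 in 4 or more libraries; 10 residual degrees of freedom remained. Day is the replicate block and pairs libraries by the labels; a correlation check of pairing is void, as day differences had been removed. A gene is called at a Benjamini-Hochberg adjusted p under 0.05. In data simulated with 200 of 14988 genes changed by 1 log2 unit, 95.5% of these were found and 5.47% of calls were false, against 99.5% and 32.8% in a fit with no day term. Only 4 tested genes had an interaction that large, and smaller ones were not simulated. The simulated noise held no trend with GC content or length, so these shares need not hold for the real values. List medians without members that passed the filter only through Lin28a-intact libraries were added after the values were seen. GC content and length are of the longest GENCODE M21 transcript of a symbol (14724 matched); the correction removed a spline trend from each library.

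Named genes were the called ones, the 8 highest and 8 lowest interactions by the rule given, the targeted genes, the 3 highest and 3 lowest by mean Lin28a or Trim71 effect, and list members, of which those shown were picked after their values were seen. Members and lists were chosen with earlier results of these data known. Alternatives covered day, filters, scaling, clones, days, single libraries and scale.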

Additional observations from a re-analysis of the deposited data

Results flagged for a closer look

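The interaction differed from 0 after adjustment for Arf5 (-0.50), Ubald2 (-0.52) and Gm44364 (-0.83). The Trim71 effect of these genes thus differed between the Lin28a-intact and the Lin28a-null libraries, which are also of different clones. No gene was called after the GC and length correction, in clones 1 and 1-4 or on days 3, 4 and 5 only. Leaving out 1 library at a time (18 fits), the adjusted p stayed under 0.05 in 6 for Arf5, 7 for Ubald2 and 4 for Gm44364.

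Of 76 groups of 4 or 5 libraries checked, 3 held a library far from the others, where chance gives about 1 in 20. H19 was at 5.22 in KO-KO replicate 5, with the next library at 5.68. Acta2 was at 6.87 in WT-WT replicate 4, with the next at 6.35. Ccr4 was at 8.41 in KO-WT replicate 4, with the next at 7.56. All 3 libraries were of day 5.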

How the results depend on the processing

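The number of called genes, 3, was 673 with no replicate block and 18 libraries and 1295 with 19, 0 after the GC and length correction, in clones 1 and 1-4, on days 3, 4 and 5 only and without the variance trend, and 1 in clones E3 and C1 and on the linear scale; it was 0 to 4 without single libraries. Genes at an unadjusted p under 0.05, 2256, numbered 3759 and 4275 without the block, 1215 in clones E3 and C1, 948 in clones 1 and 1-4, 1414 on days 3, 4 and 5, and 1414 (without WT-WT replicate 3) to 2992 (without KO-KO replicate 4) with single libraries left out. The correction called 0 genes in limma with 1534 at an unadjusted p under 0.05.

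The zinc finger median stayed above 0, at 0.16 (clones 1 and 1-4) to 0.39 (clones E3 and C1). The ribosomal median was -0.079 after the correction, -0.086 in clones 1 and 1-4 and -0.11 on days 3, 4 and 5, and -0.16 to -0.098 without single libraries. The oxidative phosphorylation median was -0.070 after the correction and -0.15 to -0.092 without single libraries. The let-7 target median was 0.017 with 75th percentile scaling, -0.029 after the correction and 0.015 to 0.062 without single libraries. Mitochondrial ribosomal medians stayed below 0, at -0.13 to -0.037 over all alternatives. The interaction of Ccr4 turned to -0.30 in clones 1 and 1-4 and to -0.10 on the linear scale, and that of Emp1 to -0.27 on the linear scale, in amounts relative to the mean and divided by the natural log of 2. The cause of these changes was not tested. Depth is unknown, so no limit from counting can be given.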
